A study of Nicotiana tabacum with 8 samples.

Results

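The photosystem II genes *Lhcb3* (Nitab4.5_0012832g0010), *Lhcb4* (Nitab4.5_0011597g0020) and *PsbQ* (Nitab4.5_0002345g0070) were followed through all libraries of a tobacco leaf transcriptome study. They are 3 of the 81378 genes of the table and were selected by identifier. All 3 passed the filter on low counts, as did 44564 genes in total. The study had chosen the genes from their own comparisons between WT and OE-2 and between salt and control, so that the differences between those groups are given as a description and carry no test.

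Photosystem II splits water and feeds electrons into the photosynthetic electron transport chain of the thylakoid membrane. *Lhcb3* encodes one of the proteins of the trimeric light-harvesting complex II, the main antenna around photosystem II. *Lhcb4* encodes CP29, a monomeric antenna protein that sits between the trimers and the photosystem II core. *PsbQ* encodes an extrinsic protein on the lumenal side that stabilises the oxygen-evolving complex. All 3 are nuclear genes whose products are imported into the chloroplast, and the mRNAs of such genes are among the most abundant in green leaves.

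The libraries came from 4 groups of *Nicotiana tabacum* cv. Zhongyan 100 grown in hydroponics. S-OE2 plants carried the *NtCBL5A* transgene and received 100 mM NaCl, S-WT plants received the same salt without the transgene, C-OE2 plants carried the transgene without added salt, and C-WT plants had neither. *NtCBL5A* encodes a calcineurin B-like calcium sensor, and in OE-2, which is 1 homozygous line, it was driven by the constitutive 35S promoter. The fifth leaf blades without main veins were taken from plants aged about 34 days, 4 days after the treatment began, and the blades of 4 plants were pooled per library. The whole design was grown in 2 independent experiments, with 1 library per group in each and 8 libraries in all. Between 18674594 and 31672013 reads were counted per library. The level of the transgene was not analysed here. The photosynthetic leaf markers ranged from 1019 to 7117 FPKM (a read count scaled by gene length and library size) for *OEE1*, from 169 to 2409 FPKM for *Lhca3* and from 1628 to 6317 FPKM for *GAPA*.

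In the Nitab v4.5 assembly used by the table, *Lhcb3* lies on the plus strand of scaffold Nitab4.5_0012832 from position 10325 to 11462, *Lhcb4* on the minus strand of Nitab4.5_0011597 from 11575 to 13762, and *PsbQ* on the plus strand of Nitab4.5_0002345 from 262204 to 264347. The lengths used for counting were 890 bases for *Lhcb3*, 967 for *Lhcb4* and 896 for *PsbQ*. The 3 genes are thus on different scaffolds. Tobacco is an allotetraploid, and the treatment of reads that fit several genes is not given in the sources used here, so that reads of near-identical copies of these genes could have been divided between them or lost.

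*Lhcb3* was the most variable of the 3 genes. Its level, in CPM (counts relative to the library total after scaling by TMM factors), was 625 in Experiment 1 and 51.4 in Experiment 2 in S-OE2 leaves, against 3010 and 296 CPM in S-WT leaves. In C-OE2 leaves it was 3819 and 581 CPM, against 4158 and 944 CPM in C-WT leaves. S-OE2 was the lowest group in both experiments and C-WT the highest, but the groups overlapped when the experiments were pooled, because the S-OE2 library of Experiment 1 lay above the S-WT and C-OE2 libraries of Experiment 2. The highest and lowest library differed 81.0-fold.

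*Lhcb4* had 1978 CPM in Experiment 1 and 1092 CPM in Experiment 2 in S-OE2 leaves, against 5105 and 2556 CPM in S-WT leaves. It had 7750 and 3711 CPM in C-OE2 leaves, against 7406 and 4504 CPM in C-WT leaves. Both S-OE2 libraries lay below all other libraries, S-WT was intermediate within each experiment, and the order of C-OE2 and C-WT changed between the experiments. The range over the 8 libraries was 7.10-fold.

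*PsbQ* had 1510 CPM in Experiment 1 and 1061 CPM in Experiment 2 in S-OE2 leaves, against 4475 and 2333 CPM in S-WT leaves. It had 5004 and 3090 CPM in C-OE2 leaves, against 4729 and 3607 CPM in C-WT leaves. Both S-OE2 libraries were again the lowest, while in Experiment 1 the S-WT, C-OE2 and C-WT libraries lay close together. The range over the 8 libraries was 4.72-fold, the narrowest of the 3 genes. The smallest single count behind these values was 1682 reads, for *Lhcb3* in S-OE2 leaves of Experiment 2, which gives a counting error of 2.44%, so that the spread between libraries was far above counting noise.

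**Figure D1:**
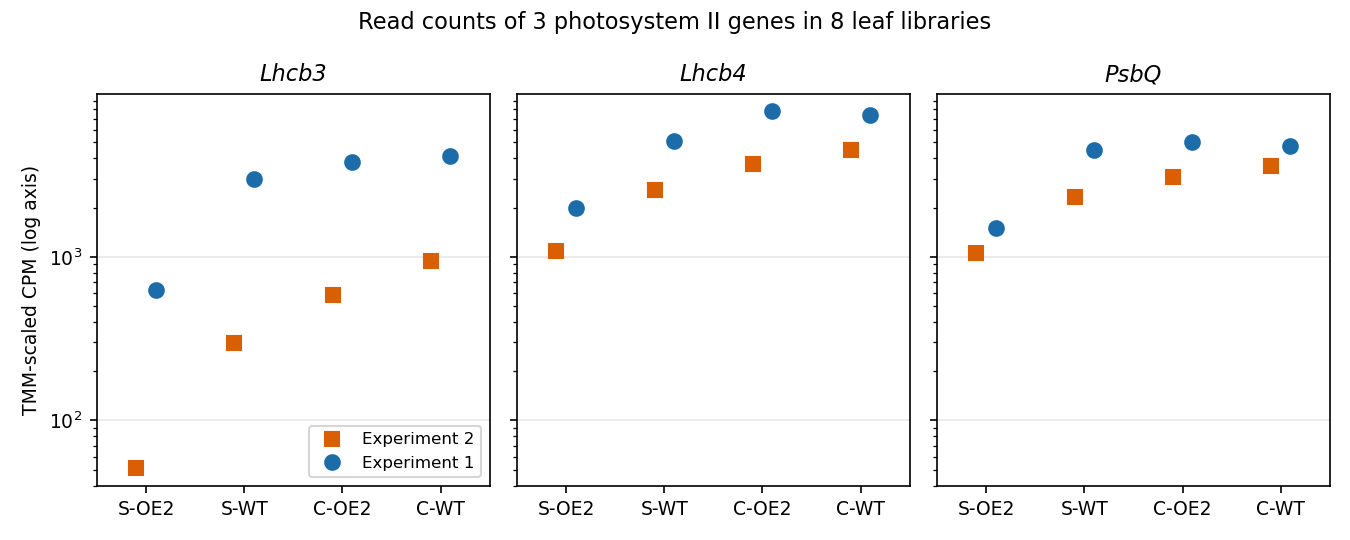
Level of each gene in TMM-scaled CPM (log axis) in the 4 groups, 1 point per library, squares for Experiment 2 and circles for Experiment 1. The S-OE2 points are the lowest of each experiment, and the distance between squares and circles is much wider for *Lhcb3* (51.4 against 625 CPM in S-OE2) than for *PsbQ* (1061 against 1510 CPM).

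In the group means, the SD over the 2 libraries was as large as or larger than the mean for *Lhcb3* in 3 of 4 groups. *Lhcb3* averaged 338 ± 406 CPM in S-OE2, 1653 ± 1919 CPM in S-WT, 2200 ± 2290 CPM in C-OE2 and 2551 ± 2273 CPM in C-WT (SD, n = 2 each). *Lhcb4* averaged 1535 ± 626, 3831 ± 1803, 5730 ± 2856 and 5955 ± 2052 CPM in the same order of groups. *PsbQ* averaged 1285 ± 318, 3404 ± 1514, 4047 ± 1353 and 4168 ± 793 CPM. For each gene the group means ran from S-OE2, the lowest, over S-WT and C-OE2 to C-WT, the highest. S-OE2 and S-WT differed by more than either SD for *Lhcb4* and *PsbQ*, but for *Lhcb3* by less than the SD of S-WT. C-OE2 and C-WT, neighbours in that order, differed by less than their SD for all 3 genes. S-WT and C-OE2 did so for *Lhcb3* and *PsbQ*, and their *Lhcb4* means differed by less than the SD of C-OE2 but by more than that of S-WT. The comparisons below were therefore made within each experiment, as the study did, with the experiment as a term of the fit.

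Under salt stress the 3 genes were lower in OE-2 than in WT in both experiments. *Lhcb3* was 4.82-fold lower in Experiment 1 and 5.77-fold lower in Experiment 2, with a fitted log2 fold change of -2.37 (SE 0.34). *Lhcb4* was 2.58-fold and 2.34-fold lower, with a fitted value of -1.30 (SE 0.20). *PsbQ* was 2.96-fold and 2.20-fold lower, with a fitted value of -1.36 (SE 0.22). *Lhcb4* and *PsbQ* thus had nearly the same difference, about 1 log2 unit smaller than that of *Lhcb3*. By edgeR's quasi-likelihood test with a Benjamini-Hochberg adjusted p below 0.05, 3 of the 3 genes were called lower, where 3.2% of all genes tested were called in this direction. The genes were chosen on this comparison, so that nothing is read from this count, and without the experiment as a term 0 of the 3 were called. Among all 44564 genes, 439 had a lower fitted value than *Lhcb3*, 1848 a lower one than *PsbQ* and 2039 a lower one than *Lhcb4*. Of the 63 genes with a mean level at least that of the least abundant of the 3, 2 had a lower value than *Lhcb3*, 27 a lower one than *PsbQ* and 32 a lower one than *Lhcb4*, so that *PsbQ* and *Lhcb4* lay near the middle of these abundant genes.

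*Lhcb3* also had the largest of the 3 differences when salt was compared with control within OE-2. *Lhcb3* was 6.11-fold lower in S-OE2 than in C-OE2 leaves in Experiment 1 and 11.3-fold lower in Experiment 2, a fitted log2 fold change of -3.02 (SE 0.35). *Lhcb4* was 3.92-fold and 3.40-fold lower, at -1.87 (SE 0.21), and *PsbQ* was 3.31-fold and 2.91-fold lower, at -1.63 (SE 0.22). *Lhcb3* had the wider gap in Experiment 2, whereas *Lhcb4* and *PsbQ* had it in Experiment 1. Here 3 of 3 genes were called lower, against 6.18% of all genes, and again 0 without the experiment as a term. The genes were chosen on this comparison too, so that nothing is read from these counts. Without that term the SE was 1.56 for *Lhcb3*, 0.62 for *Lhcb4* and 0.51 for *PsbQ*.

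In WT the corresponding differences were smaller. *Lhcb3* was 1.38-fold lower in S-WT than in C-WT leaves in Experiment 1 and 3.19-fold lower in Experiment 2 (fitted log2 fold change -1.11, SE 0.33). *Lhcb4* was 1.45-fold and 1.76-fold lower (-0.68, SE 0.20). *PsbQ* was 1.06-fold and 1.55-fold lower (-0.35, SE 0.21). In Experiment 1 the *PsbQ* levels of S-WT and C-WT leaves, 4475 and 4729 CPM, were nearly the same. edgeR called 0 of the 3 genes, against 0.0494% of all genes called lower. 2 of the 3 had an unadjusted p below 0.05, against 4.88% of all genes lower at that p, and DESeq2 called 1, against 0.857% of all genes called lower by it. The study's choice of genes also used this comparison, so that nothing is read from these counts. Leaving out 1 library at a time, the value of *Lhcb3* ran from -1.61 (without C-WT of Experiment 1) to -0.52 (without C-WT of Experiment 2), and that of *PsbQ* from -0.56 (without S-WT of Experiment 1) to -0.15 (without S-WT of Experiment 2).

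Without salt, the difference between OE-2 and WT was within its error for *Lhcb4* and *PsbQ* and little larger than it for *Lhcb3*. The fitted log2 fold change between C-OE2 and C-WT was -0.46 (SE 0.33) for *Lhcb3*, -0.11 (SE 0.20) for *Lhcb4* and -0.08 (SE 0.21) for *PsbQ*. In Experiment 1 the values were -0.12, 0.07 and 0.08 and in Experiment 2 they were -0.70, -0.28 and -0.22, so that *Lhcb4* and *PsbQ* took opposite signs in the experiments. When the C-WT library of Experiment 2 was left out, the *Lhcb3* value was 0.16. edgeR called 0 of the 3 genes, against 0.0202% of all genes called lower, and DESeq2 called 0, against 0.103% called lower by it. At an unadjusted p below 0.05 there were 0 of the 3, against 1.34% of all genes lower at that p. The study's choice of genes also used this comparison, so that nothing is read from these counts.

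The interaction, which is the difference between OE-2 and WT under salt minus that without salt, was -1.91 (SE 0.46) for *Lhcb3*, -1.19 (SE 0.28) for *Lhcb4* and -1.28 (SE 0.30) for *PsbQ* on the log2 scale. In Experiment 1 it was -2.15, -1.43 and -1.65 and in Experiment 2 it was -1.83, -0.95 and -0.91. edgeR called 0 of the 3 genes, against 0.00224% of all genes called lower. All 3 had an unadjusted p below 0.05, against 5.42% of all genes lower at that p, and DESeq2 called 3, against 0.945% of all genes called lower by it. The interaction is made up of the comparisons on which the genes were chosen, so that nothing is read from these counts. The *Lhcb3* value ran from -2.55 (without C-WT of Experiment 2) to -1.46 (without C-WT of Experiment 1).

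**Figure D2:**
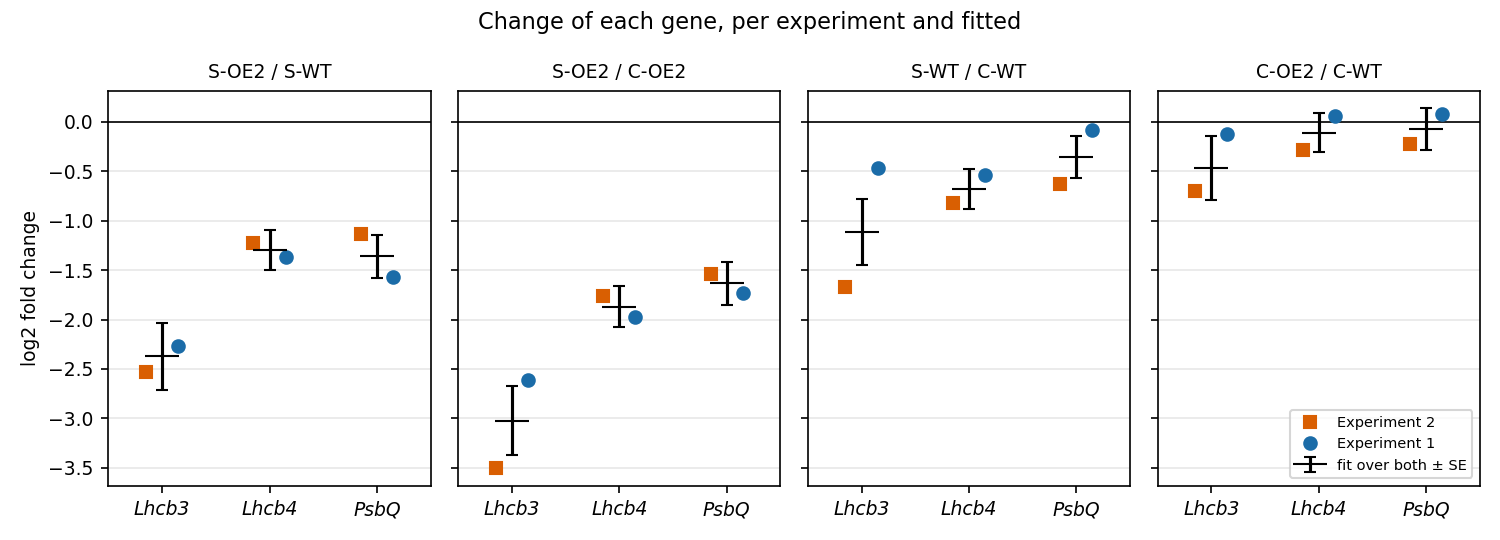
Log2 fold change of each gene in 4 comparisons, given as the numerator over the denominator in each panel title. Squares are Experiment 2, circles Experiment 1, and the bar is the value fitted over both with its standard error. The values of *Lhcb4* (-1.30) and *PsbQ* (-1.36) lie together between S-OE2 and S-WT, with *Lhcb3* (-2.37) below them, and between C-OE2 and C-WT *Lhcb4* (-0.11) and *PsbQ* (-0.08) lie near 0 with *Lhcb3* (-0.46) below them.

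The libraries are bulk RNA of leaf blades, in which fewer cells of a type and less RNA per cell cannot be told apart. The cell death markers *NRP* and *HSR203J* moved in the opposite direction. *NRP* had 373 and 243 CPM in S-OE2 leaves, against 50.2 and 57.4 CPM in S-WT leaves, and it had 36.3 and 40.6 CPM in C-OE2 leaves, against 19.5 and 29.6 CPM in C-WT leaves. *HSR203J* had 68.9 and 70.3 CPM in S-OE2 leaves, against 11.8 and 15.4 CPM in S-WT leaves, and it had 18.1 and 15.5 CPM in C-OE2 leaves, against 6.18 and 9.09 CPM in C-WT leaves. Between S-OE2 and S-WT their log2 fold changes were 2.53 (SE 0.29) for *NRP* and 2.37 (SE 0.24) for *HSR203J*. The part of cell death in the levels of the 3 photosystem II genes was not tested.

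The other photosynthesis genes with identifiers in the paper were also chosen on these samples, so that their values are a description too. Between S-OE2 and S-WT, all 9 were called lower, against 3.2% of all genes, and nothing is read from this count. Their log2 fold changes ran from -1.46 to -0.97 with a median of -1.21. The median was -1.36 for the 3 genes and 0.01 for all genes tested. Within photosystem II, *OEE1*, the manganese-stabilising protein of the oxygen-evolving complex to which PsbQ also belongs, was at -1.39 (SE 0.20), close to *PsbQ*. *PsbX*, a small membrane subunit, was at -1.21 (SE 0.19). In photosystem I, *PsaH*, a subunit at the docking site of light-harvesting complex II, was at -1.46 (SE 0.19), and *Lhca3*, an antenna protein, was at -1.05 (SE 0.20). *PsaD* and *PsaE*, subunits on the stromal side where ferredoxin docks, were at -1.27 and -1.33. The electron carrier ferredoxin (*Fd*, -0.97), the *F-ATPase delta subunit* of the chloroplast ATP synthase (-1.07) and *GAPA*, the Calvin cycle glyceraldehyde-3-phosphate dehydrogenase (-1.09), had the smaller differences together with *Lhca3*. *Lhcb3*, at -2.37, was outside the range of these 9 genes, whereas *Lhcb4* and *PsbQ* were inside it.

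Between S-OE2 and C-OE2 all 9 were likewise called lower, against 6.18% of all genes, with a median of -1.75 against -1.87 for the 3 genes. Between S-WT and C-WT edgeR called 0 of the 9, against 0.0494% of all genes called lower. Of the 9, 8 had an unadjusted p below 0.05, against 4.88% of all genes lower at that p. The median was -0.54 against -0.68. Between C-OE2 and C-WT edgeR called 0 of the 9, against 0.0202% of all genes called lower. At an unadjusted p below 0.05 there were 0 of the 9, against 1.34% of all genes lower at that p. The medians were -0.10 and -0.11. The 9 genes were chosen on these comparisons too, so that nothing is read from these counts.

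Levels were compared between genes only per length, in the FPKM values of the table. *Lhcb4* had 2855 and 1585 FPKM in S-OE2 leaves of Experiments 1 and 2, and *PsbQ* had 2352 and 1661 FPKM, whereas *Lhcb3* had 980 and 81.0 FPKM. In C-WT leaves *Lhcb4* had 11781 and 7174 FPKM, *PsbQ* 8119 and 6201 FPKM, and *Lhcb3* 7187 and 1634 FPKM. *Lhcb4* was above *PsbQ* and *PsbQ* above *Lhcb3* in 7 of 8 libraries, and the exception was the S-OE2 library of Experiment 2, in which *PsbQ* was slightly above *Lhcb4*. TMM-scaled counts per kilobase differ from FPKM only by a factor common to all genes of a library. They therefore give the same order by construction and are no further check of it. Together the 3 genes took between 0.302% (S-OE2, Experiment 2) and 1.29% (C-OE2, Experiment 1) of all reads counted in a library.

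By FPKM, *Lhcb4* ranked between 13th and 48th among all genes of a library and *PsbQ* between 24th and 49th, so that both stayed among the 100 most abundant mRNAs in every library. *Lhcb3* did not. Its rank was 121 and 1925 in S-OE2 leaves of Experiments 1 and 2, against 44 and 306 in S-WT leaves, and it was 53 and 193 in C-OE2 leaves, against 48 and 136 in C-WT leaves. It was thus among the first 100 genes in 3 of 4 libraries of Experiment 1 and in none of Experiment 2.

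The proportion of the 3 mRNAs therefore differed between libraries. The FPKM of *Lhcb3* relative to *Lhcb4* was 0.343 in Experiment 1 and 0.0511 in Experiment 2 in S-OE2 leaves, against 0.641 and 0.126 in S-WT leaves. It was 0.535 and 0.170 in C-OE2 leaves, against 0.610 and 0.228 in C-WT leaves. The S-OE2 library had the lowest ratio of each experiment, and every library of Experiment 2 lay below every library of Experiment 1. The FPKM of *PsbQ* relative to *Lhcb4* kept to a narrower range, with 0.824 and 1.05 in S-OE2 leaves, against 0.946 and 0.985 in S-WT leaves, and with 0.697 and 0.899 in C-OE2 leaves, against 0.689 and 0.864 in C-WT leaves. This ratio was higher in the salt libraries than in the control libraries of the same experiment, and higher in Experiment 2 within each group.

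**Figure D3:**
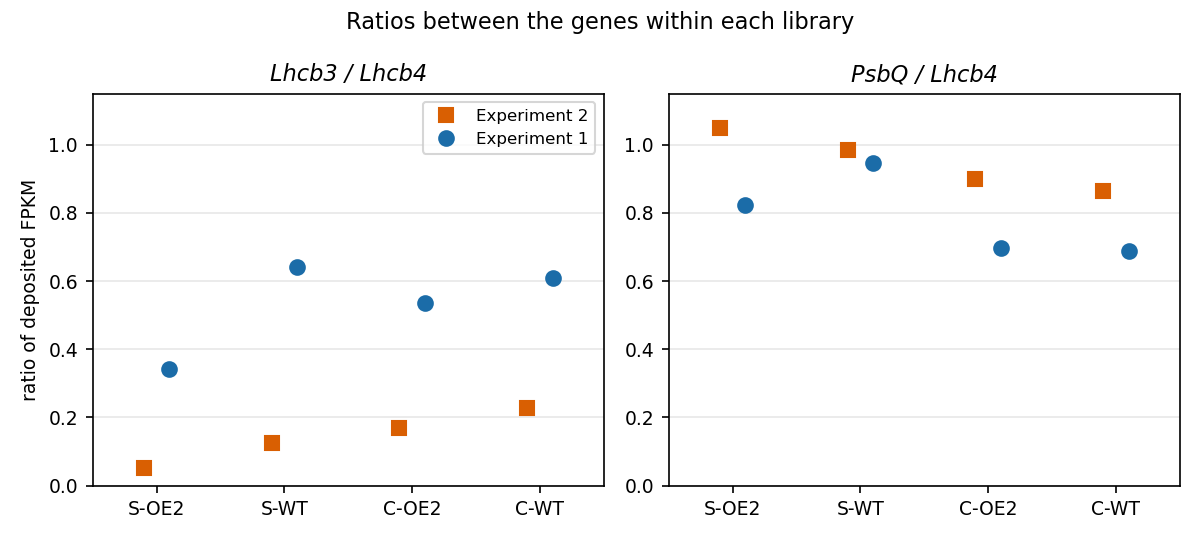
Ratio of deposited FPKM values of *Lhcb3* to *Lhcb4* (left) and of *PsbQ* to *Lhcb4* (right) in each library, on linear axes that start at 0, with squares for Experiment 2 and circles for Experiment 1. The left ratio is at most 0.228 in Experiment 2 and at least 0.343 in Experiment 1, while the right ratio stays between 0.689 and 1.05.

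The difference between the experiments was not used to choose the genes, and it was tested over all 4 groups with the group as a term. With only 2 experiments, the p-values of this test, here and below, measure how well the 4 groups agree. They do not measure the spread between independent experiments. *Lhcb3* was 7.74-fold lower in Experiment 2 than in Experiment 1, a log2 difference of -2.95 (SE 0.25, edgeR quasi-likelihood test, adjusted p = 0.000282). It was lower in 4 of 4 groups, by 4.40-fold to 12.2-fold. The log2 difference was -3.60 in S-OE2, -3.34 in S-WT, -2.72 in C-OE2 and -2.14 in C-WT. For *Lhcb3* the difference between the experiments was thus as large as that between salt and control in OE-2, and 240 of the 44564 genes had a lower value. Among the 63 abundant genes, 10 had a lower value than *Lhcb3*, 21 a lower one than *Lhcb4* and 32 a lower one than *PsbQ*.

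*Lhcb4* was 1.88-fold lower in Experiment 2 (log2 difference -0.91, SE 0.14, edgeR adjusted p = 0.00477), with values from -1.06 to -0.72 in the 4 groups. *PsbQ* was 1.55-fold lower (-0.63, SE 0.15, edgeR adjusted p = 0.0258), with values from -0.94 to -0.39. All 3 genes were called lower, against 7.42% of all genes called lower and 6.36% called higher. The calls of *Lhcb3* held within the control libraries and within the salt libraries alone, at -2.42 and -3.47. *Lhcb4* held within the control libraries (-0.88, SE 0.16) but not within the salt libraries (-0.92, SE 0.26, edgeR adjusted p = 0.116). Its value was similar in both, and the SE was larger in the salt libraries. *PsbQ* held in neither (-0.53 with edgeR adjusted p = 0.0522, and -0.72 with adjusted p = 0.187). Leaving out 1 library at a time, the value of *Lhcb4* ran from -0.97 to -0.85 and that of *PsbQ* from -0.72 to -0.53. The call of *PsbQ* was lost without C-OE2 or S-WT of either experiment, and without C-WT of Experiment 2. That of *Lhcb4* was lost without C-OE2 of Experiment 2. With total-count scaling, which moved the median of all genes to 0.35, the value of *PsbQ* was -0.29 (edgeR adjusted p = 0.160). The TMM factors were 0.966 to 1.37 in Experiment 2 and 0.755 to 1.16 in Experiment 1, and total counts of the experiments overlapped. The sampling, growth and sequencing of the experiments cannot be told apart.

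Whether the genes differed from each other in this respect was examined over the 4 groups. The log2 difference of *Lhcb3* minus that of *Lhcb4* averaged -2.04 (SD 0.61, n = 4), and the gap to *PsbQ* averaged -2.32 (SD 0.58, n = 4). Between *Lhcb4* and *PsbQ* the mean gap was -0.27 (SD 0.14, n = 4). Each gap had the same sign in 4 of 4 groups, and the two-sided exact permutation test by sign changes gave p = 0.125 for each of the 3 pairs (adjusted p = 0.125), the smallest value that 4 groups allow. The 4 groups came from the same 2 experiments and are not independent replicates of the difference between them. The SD and p are therefore a description of these groups, and no conclusion is drawn from the test.

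Of the other 9 photosynthesis genes, 6 were called lower in Experiment 2 by edgeR's test, against 7.42% of all genes. The median log2 difference over the 9 was -0.63. The photosystem I antenna gene *Lhca3* had the largest of these differences, 3.81-fold lower (-1.93, SE 0.14, edgeR adjusted p = 0.000138), with -2.03 in S-OE2, -1.94 in S-WT, -2.03 in C-OE2 and -1.71 in C-WT. *PsaH* (-0.99), *OEE1* (-0.93), *PsbX* (-0.83), *PsaD* (-0.63) and *PsaE* (-0.51) were close to *Lhcb4* and *PsbQ*. *Fd* (-0.41, edgeR adjusted p = 0.0877), the *F-ATPase delta subunit* (-0.29, adjusted p = 0.232) and *GAPA* (-0.24, adjusted p = 0.315) did not pass the threshold. The 2 antenna genes *Lhcb3* and *Lhca3* were the lowest of the 12, but the antenna gene *Lhcb4* was not apart from the core and extrinsic subunits. The cell death markers were not called, with *NRP* at 0.08 (edgeR adjusted p = 0.828) and *HSR203J* at 0.17 (adjusted p = 0.526).

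**Figure D4:**
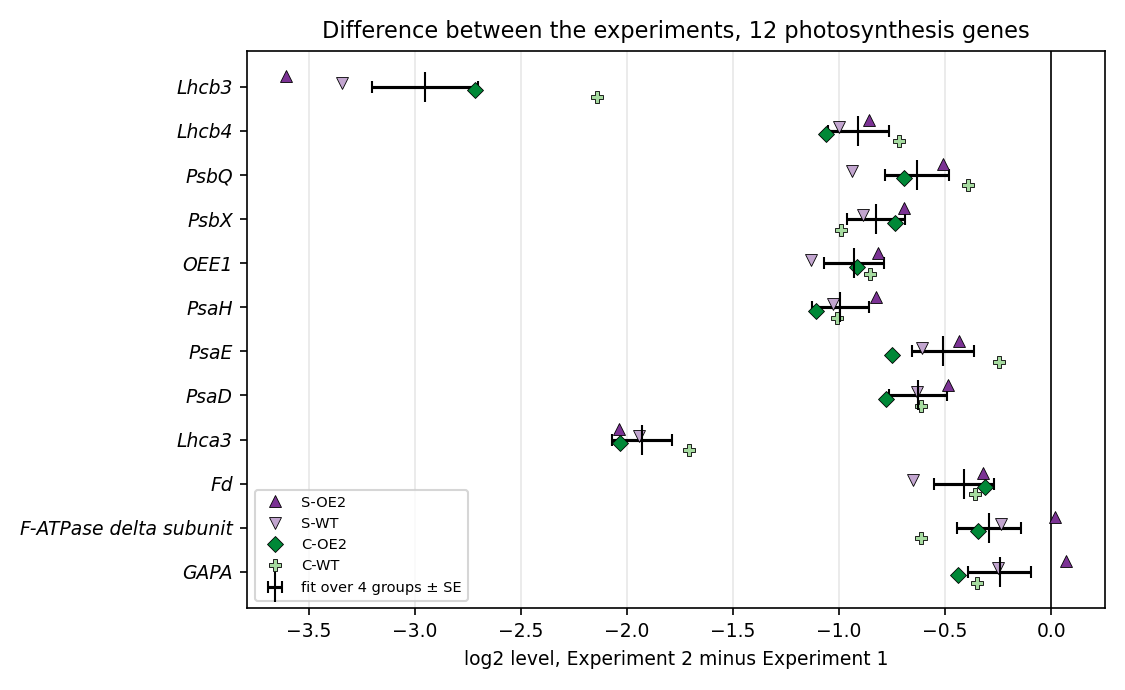
Log2 level in Experiment 2 minus Experiment 1 for the 3 genes and the other 9 photosynthesis genes, with 1 symbol per group and the fitted value with its standard error. *Lhcb3* (-2.95) and *Lhca3* (-1.93) lie apart from the other 10 genes, whose fitted values are between -0.99 and -0.24.

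The nearest counted genes on the scaffolds of the 3 genes were examined next, since position had no part in the choice. Of 4 such neighbours, edgeR and DESeq2 each called 0 between S-OE2 and S-WT, against 7.38% of all genes in either direction by edgeR, and 0 between S-OE2 and C-OE2, against 11.9%. None had an unadjusted p below 0.05 in edgeR's test. The neighbour of *Lhcb3*, Nitab4.5_0012832g0020, lies on the opposite strand at a gap of 533 bases and had 54 to 335 reads per library. Its log2 fold change between S-OE2 and S-WT was -0.31 (SE 0.26, edgeR adjusted p = 0.581), and that between S-OE2 and C-OE2 was 0.17 (SE 0.27, adjusted p = 0.752). Between the experiments it was higher in Experiment 2 (1.25, edgeR adjusted p = 0.0044), whereas *Lhcb3* was lower there. The neighbour after *PsbQ*, at a gap of 1082 bases, had only 0 to 19 reads per library, too few to show a difference of the size seen in *PsbQ* (-1.69, SE 1.05, edgeR adjusted p = 0.422). The other 2 neighbours were 27066 bases from *Lhcb4* (0.12, adjusted p = 0.887) and 67743 bases from *PsbQ* (0.18, adjusted p = 0.777).

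The genes whose log2 CPM followed the 3 genes most closely over the 8 libraries were ranked by Pearson's r among the 44564 genes tested. These values describe a shared pattern of salt, line and experiment, which the libraries have in common, and carry no test. *Lhcb4* and *PsbQ* were closest to each other among the 3, at r = 0.984, with *Lhcb3* at r = 0.943 to *Lhcb4* and r = 0.908 to *PsbQ*. *PsbQ* ranked 85th by likeness to *Lhcb4*, and *Lhcb4* ranked 48th by likeness to *PsbQ*. For *Lhcb3*, *Lhcb4* ranked 411th and *PsbQ* 902nd. Of the 9 other photosynthesis genes, *Lhca3* was nearest to *Lhcb3* (r = 0.985, 43rd), *PsaH* to *Lhcb4* (r = 0.997, 6th) and *PsaE* to *PsbQ* (r = 0.989, 22nd). Among the 1000 genes most like *Lhcb3*, out of 44563 ranked, there were 4 of the 9, compared with 9 for *Lhcb4* and 8 for *PsbQ*. The study chose the 3 genes and the 9 on the same comparisons of these libraries. Their likeness is not independent of that choice, and nothing is read from these counts. When the mean of each experiment was subtracted first, the 1000 genes most like *Lhcb3* held 8 of the 9, and its r was 0.978 to *Lhcb4* and 0.977 to *PsbQ*.

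The single gene most like *Lhcb3* was Nitab4.5_0002229g0060 (r = 0.998), whose range was even wider. Nitab4.5_0002229g0060 had 556 and 25.9 CPM in S-OE2 leaves of Experiments 1 and 2, against 2963 and 181 CPM in S-WT leaves, and it had 5503 and 491 CPM in C-OE2 leaves, against 5783 and 795 CPM in C-WT leaves. Most like *Lhcb4* was Nitab4.5_0001315g0130 (r = 0.999), with 364 and 188 CPM in S-OE2 leaves, against 882 and 420 CPM in S-WT leaves. Most like *PsbQ* was Nitab4.5_0000630g0120 (r = 0.998), with 110 and 75.0 CPM in S-OE2 leaves, against 290 and 155 CPM in S-WT leaves. These identifiers are not paired with gene names in the sources used here.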

How the data were processed

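The authors aligned the reads to the Nitab v4.5 tobacco genome with HISAT2 2.0.5, assembled additional transcripts with StringTie 1.3.3b and deposited raw counts per gene from featureCounts 1.5.0-p3 (versions per the submitters' processing notes). The authors also deposited FPKM values. These equal counts divided by gene length and by a denominator of 49.0% to 97.6% of each library's total count, and the sources used here do not state how it was set. The counts were analysed with R 4.3.3, edgeR 4.0.16 (filterByExpr, TMM factors, quasi-likelihood fit over all 8 libraries with group and experiment as terms, Benjamini-Hochberg adjustment over 44564 genes) and, as an alternative, DESeq2 1.42.0. Standard errors are approximate and were derived from the fold change and the F statistic of each gene. The biological coefficient of variation was 24.2%. The experiment was kept as a block because the study compared groups within each experiment. Libraries of one experiment deviated together, with correlations from 0.383 to 0.517 over 6 pairs of groups. With 2 libraries per group, 1 from each experiment, p-values of this fit measure the spread left between libraries after the group and experiment terms. They do not measure the full spread between the 2 libraries of a group. The scripts were tested on simulated data.

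The genes named are the 3 photosystem II genes, the 9 other photosynthesis genes and 2 cell death markers with identifiers in the paper, the nearest counted genes on the scaffolds, and the genes most alike by Pearson's r of log2 CPM (prior count 2). These genes, lists and tests were chosen with earlier results of these data known. The alternatives were RLE factors, total-count scaling, no filter, no experiment term, the libraries of a comparison alone, each library left out, a prior count of 0.5, a mean of at least 100 counts and subtraction of experiment means. Sequences of the genes were not used here. Figures were drawn with matplotlib 3.10.9.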

Additional observations from a re-analysis of the deposited data

How the results depend on the processing

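The signs of the 3 genes between S-OE2 and S-WT, between S-OE2 and C-OE2, between S-WT and C-WT and in the interaction were the same under every alternative run. Total-count scaling shifted the median of all genes by 0.29, 0.48 and 0.27 in the first 3 of these comparisons, and with it the median log2 fold change of the 3 genes was -1.07, -1.39 and -0.41. Without the replicate block for the experiment, edgeR called 0 of the 3 genes in the first 2 comparisons, in place of 3, and the medians were of the same sign. The share of all genes called without that block was not counted, so that the 0 cannot be set against it. Without a filter on low counts, edgeR called 1 of the 3 in the interaction. The share of all genes called in that setting was not counted either, so that nothing is read from this count. Leaving out 1 library at a time, the median between C-OE2 and C-WT ran from -0.23 (without C-WT of Experiment 1) to 0.10 (without C-WT of Experiment 2), and *Lhcb3* from -0.93 to 0.16. For the experiments, 1 to 3 of the 3 genes were called lower when 1 library was left out, with *Lhcb3* from -3.22 to -2.72 and called each time. In the salt libraries alone 1 was called. The smallest count of the 3 genes in a library was 1682.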

Other observations

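After the values of *Lhcb3* by experiment had been seen, terms for experiment by salt and experiment by genotype were added to the model. The log2 difference between Experiment 2 and Experiment 1 was more negative in salt than in control libraries for *Lhcb3*, by -1.05 (SE 0.29, edgeR quasi-likelihood test, adjusted p = 0.450), so that it did not pass the threshold. The same term was -0.04 for *Lhcb4* (edgeR adjusted p = 0.986) and -0.18 for *PsbQ* (adjusted p = 0.891). The experiment by genotype term was -0.42 for *Lhcb3*, -0.10 for *Lhcb4* and 0.06 for *PsbQ*, each with an edgeR adjusted p of 1. edgeR called 0 genes of all 44564 for either term, and 3702 (experiment by salt) and 1542 (experiment by genotype) had an unadjusted p below 0.05.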
